A study of Bos taurus and Ovis aries and Capra hircus with 9 samples.

Results

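Genes of the nuclear genome that are annotated as a single exon of 300 nt or more were examined in the liver transcriptomes of cattle, sheep and goats. A gene was a member when it did not lie on the mitochondrial sequence, when its annotated intervals merged into exactly 1 exon position, and when that exon was at least 300 nt long. Measured expression played no part in the choice. The rule found 2711 of 27607 annotated genes in cattle (9.83% of the nuclear genes), 4009 of 26478 in sheep (15.2%) and 2188 of 27271 in goats (8.03%). Liver RNA was sequenced from 3 healthy adult Holstein cattle, 3 healthy adult Texel sheep and 3 healthy adult Yunnan black goats. Each library came from a different animal, and the replicate letters A, B and C are shared between species without linking animals. No treatment is named for the animals. Species, breed, genome assembly and annotation all change together and cannot be told apart as sources of a difference. The paper gives an older age range for the cattle than for the sheep and goats, so age changes with them in comparisons with cattle.

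Most genes of mammals are interrupted by introns, which are removed from the transcript before it leaves the nucleus. Genes without introns arise in several known ways: as retrocopies of processed messenger RNA, as members of families that have long lacked introns such as olfactory and many other G protein-coupled receptors, histones and type I interferons, or as open reading frames of mobile elements. Olfactory receptor genes are known to stand in large clusters and to be read mainly in the nose. Most replication-dependent histone transcripts end without a poly(A) tail, and these libraries were made from RNA caught on Oligo(dT) beads. The deposited tables give Ensembl identifiers without gene names and the name table at hand paired none of them with a symbol, so members are described by identifier, position and length, and neither the families above nor liver markers could be looked up. An intronless copy can share reads with its parent gene, and how reads with several matches were counted is not given in the sources used here.

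The 9 libraries held between 16507706 and 61105490 counts, with the cattle libraries deepest and goat replicates B and C shallowest. A level of 3 counts corresponded to between 0.0491 and 0.182 CPM (counts-per-million, the count scaled by all gene counts of the library). Cattle libraries carried 9.61 to 10.8% of their counts on mitochondrial genes, against 1.99 to 2.99% in sheep and 1.09 to 3.70% in goats, where replicate C was highest. Goat replicate C also stood apart in its members, as described below for each result it touches.

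Single-exon genes took up a small part of the liver messenger RNA, and that part was smaller in cattle than in sheep and goats. Cattle replicate A gave a share of counts of 0.373%, replicate B 0.419% and replicate C 0.403%. It was 1.04, 0.938 and 1.11% in the sheep libraries. In goats it was 1.06, 1.07 and 1.08%. Every sheep and goat library lay above every cattle library, while the sheep values reached both below and above the goat values. The means were 0.398% ± 0.0235 in cattle, 1.03% ± 0.0877 in sheep and 1.07% ± 0.0149 in goats (SD, n = 3), a ratio of 2.58 for sheep over cattle and 2.69 for goats over cattle. Counting error was small beside these differences, since the 95% Wilson intervals of the single libraries reached at most 0.00500 percentage points to either side. An exact permutation test over all 280 divisions of the 9 libraries into 3 species gave p = 0.0214 (adjusted p = 0.0292 over 7 exact tests across libraries). Each pair of species, with 3 libraries against 3, cannot go below p = 0.1 in an exact two-sided test, which is the value found for both comparisons with cattle, and sheep against goats gave p = 0.6.

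The difference did not rest on a few abundant genes. Without the 10 most abundant members of each species the share was 0.258% ± 0.0169 in cattle, 0.660% ± 0.0758 in sheep and 0.723% ± 0.0795 in goats (exact permutation p = 0.0143, adjusted p = 0.0250). The 10 highest members of a library held 35.5% ± 0.426 of all member counts for cattle, 36.2% ± 1.86 for sheep and 33.6% ± 6.41 for goats, and these values did not pass the test (exact permutation p = 0.896). Between 20 and 24 members held 50% of the member counts in 8 of the libraries, and 36 did so in goat replicate C, where the 10 highest held 26.3%.

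**Figure D1:**
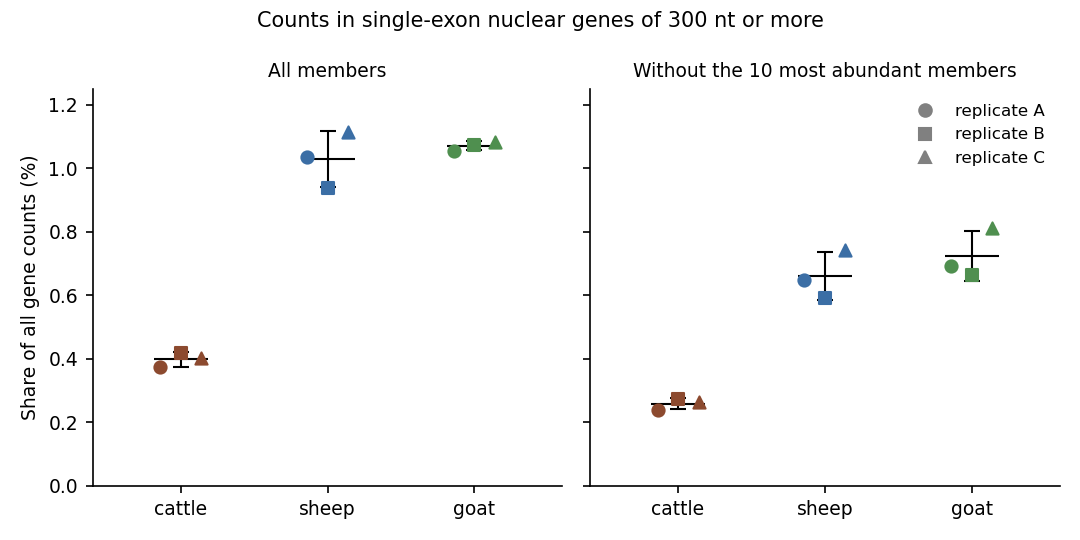
Share of all gene counts (in percent, y axis) that fell in single-exon nuclear genes of 300 nt or more, for each library of the 3 species (x axis), with all members on the left and without the 10 most abundant members on the right. Points are libraries, and the bar and whiskers give the mean and SD; the cattle libraries, at 0.373 to 0.419% with all members, lie below all 6 others in both panels.

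Few of the members were detected in liver. A CPM of at least 1 was reached in 265, 270 and 269 members in the cattle libraries (9.89% ± 0.0976 of the members). In sheep the numbers were 493, 457 and 505 (12.1% ± 0.623), and in goats they were 469, 469 and 515 (22.1% ± 1.21). All 3 goat libraries were above all sheep libraries, and these were above all cattle libraries (exact permutation p = 0.00357, the smallest that 280 divisions can give, adjusted p = 0.0137). The numbers detected in sheep and goats were alike, out of 4009 and 2188 annotated members.

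In all 3 libraries of their species, 237 members of cattle (8.74%), 424 of sheep (10.6%) and 410 of goats (18.7%) had a CPM of at least 1. The same threshold was passed by 42.6% of all nuclear genes of cattle, 43.8% of sheep and 43.5% of goats, and by 54.7, 57.8 and 51.9% of the nuclear genes of 2 or more exons. Of the nuclear genes of 2 or 3 exons alone, 23.5% in cattle, 24.3% in sheep and 22.0% in goats passed it, closer to the members. Within each library the share of detected members was below the share of detected genes of 2 or more exons, with a mean difference of -43.3 ± 7.42 percentage points (SD over the 9 libraries). It was negative in 9 of 9 libraries (exact sign-flip permutation test, two-sided p = 0.00391, adjusted p = 0.0137). This p is the smallest that 9 libraries can give. Libraries of a species share its annotation, so the 9 differences are not independent of each other. No count at all was found in any library of the species for 1472 members of cattle (54.3%), 2356 of sheep (58.8%) and 1131 of goats (51.7%). For the genes of 2 or more exons this was 15.2, 14.3 and 21.7%, and for those of 2 or 3 exons 34.6, 36.6 and 47.0%. For a member without any count, 0 counts allow a level of up to 3 counts in a library, the values in CPM given above.

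**Figure D2:**
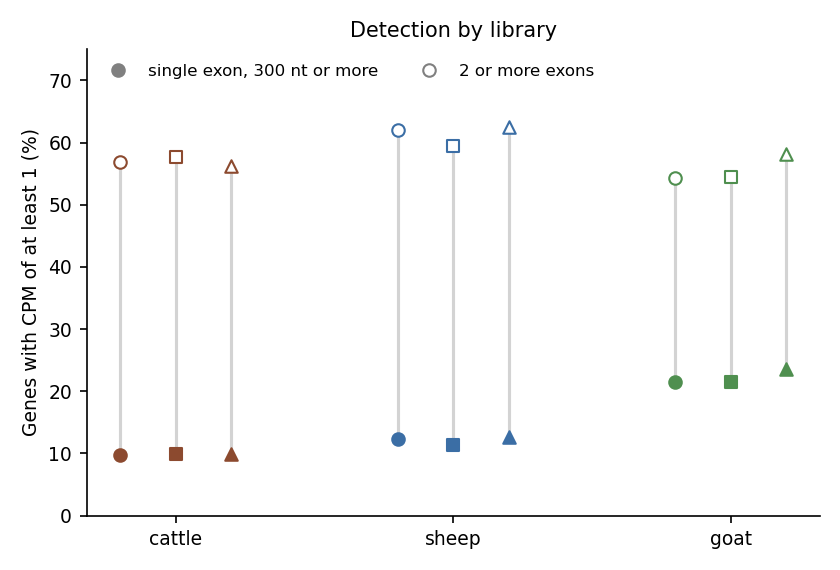
Percentage of genes with a CPM of at least 1 (y axis) in each library of the 3 species (x axis; circle, square and triangle are replicates A, B and C), for single-exon members (filled) and for nuclear genes of 2 or more exons (open). A grey line joins both values of a library; members lie between 9.77 and 23.5%, genes of 2 or more exons between 54.3 and 62.5%.

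Most members had the length of a whole number of codons. Their exon length was a multiple of 3 in 86.2% of cattle members, 99.5% of sheep members and 91.6% of goat members. Of the genes of 2 or more exons, 44.1, 56.9 and 58.3% had such a length. For genes of 2 or 3 exons alone these values were 59.5, 82.4 and 66.7%, below the members but nearer to them. The median length of the members was 951, 1041 and 936 nt. Detection differed between length classes. Members of 900 to under 1000 nt, a size range in which many olfactory receptor reading frames are known to fall, were mostly without counts: of 864 in cattle, 7 were detected in all 3 libraries and 782 had no count. In sheep, 37 of 753 members of this class were detected and 627 had no count. In goats, 31 of 499 were detected and 417 had no count. Of the cattle members of 1500 nt or more, 121 of 421 were detected (28.7%), and they held 54.9% ± 2.40 of the cattle member counts. In sheep and goats members of that length held 19.1% ± 1.55 and 11.3% ± 3.29, and the classes below 900 nt together took the larger part.

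The shortest members were another class in which cattle stood apart. Members of 300 to under 500 nt numbered 443 in cattle, 501 in sheep and 434 in goats. In cattle 14 of them were detected in all 3 libraries (3.16%), in sheep 62 (12.4%) and in goats 80 (18.4%). Their part of the member counts was 4.43% ± 0.603 for cattle, 24.8% ± 3.29 for sheep and 26.8% ± 4.69 for goats. These class values are descriptions and were not tested.

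**Figure D3:**
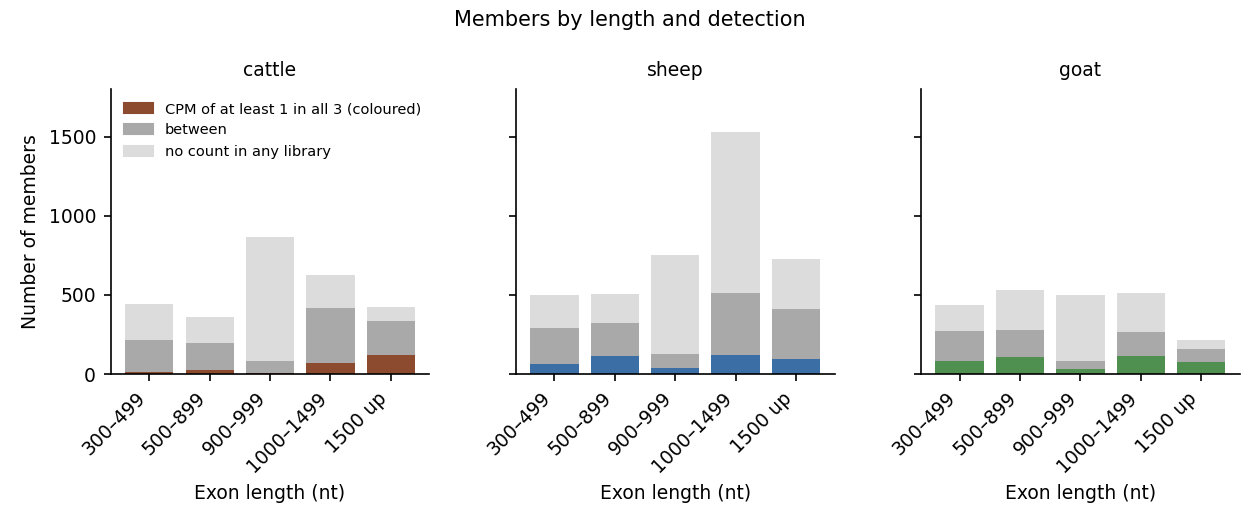
Number of members (y axis) in 5 classes of exon length in nt (x axis) for cattle, sheep and goats, divided into members with a CPM of at least 1 in all 3 libraries (coloured, lowest), members with counts that did not reach this (dark grey) and members with no count in any library (light grey, top). The class from 900 nt is almost wholly light grey, with 782 of 864 members at 0 in cattle.

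Many members shared an exact length with others, also outside the class of 900 to under 1000 nt, which is left out here. In sheep 123 members on 25 chromosomes or unplaced sequences were exactly 3819 nt long, none of them was detected in all 3 libraries, 38 had no count, and their summed level was 4.17, 16.9 and 3.04 CPM in replicates A, B and C. In goats 62 members were 567 nt long, of which 58 had no count, and 46 were 867 nt long, of which all 46 had none. The most repeated such length in cattle was 381 nt, with 31 members, of which 3 were detected and 19 had no count. Members of 1 length may be copies of 1 sequence, in which case reads cannot be assigned to a copy, and no genome sequence was at hand to compare them.

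Members often stood side by side. Uninterrupted runs of 3 or more neighbouring members held 808 members in cattle, 1188 in sheep and 419 in goats. In runs, 1.11% of cattle members, 3.37% of sheep members and 7.64% of goat members were detected in all 3 libraries, compared with 12.0, 13.6 and 21.4% of those outside runs. The longest run of cattle was 22 members on chromosome 19 (41201889 to 41400789), of which 0 were detected and 21 had no count. In sheep 26 members followed each other on chromosome 20 (33162419 to 33447536), with 1 detected and 18 without a count. The longest run of goats, 26 members on chromosome 23 (18136431 to 18283493), had a median length of 387 nt. It differed from the others, since 4 of its members were detected and only 2 had no count. The longest runs were found in each species by itself and were not matched, so they do not compare the same genes.

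Members were not spread evenly over the assemblies. In sheep 344 members lay on chromosome X, 8.58% of the members against 4.70% of all nuclear genes, while in cattle 119 did so (4.39% against 4.11%). The goat files name no X chromosome, and 465 goat members (21.3%, against 7.81% of nuclear genes) lay on sequences without a chromosome number. Few members overlapped an exon of another gene, 62 in cattle, 56 in sheep and 27 in goats, and 426, 283 and 190 overlapped the span of another gene, in whole or in part. Whether the counting used the strand is not given in the sources used here, so reads of those members and of the overlapping gene cannot be separated with certainty.

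The most abundant member of cattle was ENSBTAG00000052582, 1119 nt on the minus strand of chromosome 17 (53471327 to 53472445, ARS-UCD1.2). Its level was 420 CPM in replicate A, 523 in B and 270 in C, a mean of 404 ± 127 (SD, n = 3), so that this member alone made up 11.3, 12.5 and 7.49% of the member counts. The next was ENSBTAG00000025441, 2474 nt on chromosome 23 (27520317 to 27522790), at 282, 237 and 302 CPM. Replicate C was lowest for the former and highest for the latter, and the order of both was exchanged there.

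ENSBTAG00000045547, 1560 nt on chromosome 22 (50485830 to 50487389) and overlapping the span of a gene on the opposite strand, followed with 131, 146 and 235 CPM. ENSBTAG00000033891, 1341 nt on chromosome 10 (42659741 to 42661081), reached 94.3, 87.7 and 128 CPM. Only these 4 cattle members had a mean above 100 CPM. The other members among the 10 highest had means between 56.8 and 99.7 CPM, and 9 of the 10 were longer than 1000 nt, the exception being ENSBTAG00000005573, 832 nt on chromosome 13, at 79.6, 89.0 and 111 CPM.

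Sheep had 19 members above a mean of 100 CPM. The highest, ENSOARG00020013481, is 444 nt on chromosome 5 (43913565 to 43914008) and had 1055, 917 and 1050 CPM in replicates A, B and C (mean 1007 ± 78.4). Per kb of exon its level was 2268 CPM, the highest of any member in the 3 species. ENSOARG00020002631, 765 nt on chromosome 3 (174824392 to 174825156), had 756, 593 and 682 CPM. ENSOARG00020024479, 855 nt on chromosome X (66679345 to 66680199), had 334, 340 and 391 CPM, and its exon overlaps one of another gene on the opposite strand. The other 7 of the 10 highest had means from 203.8 to 293 CPM, with 2 of the 10 on chromosome X.

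Goats had 22 members above a mean of 100 CPM. ENSCHIG00000002500, 765 nt on chromosome 5 (56351690 to 56352454), was the highest with 694, 1139 and 461 CPM (mean 765 ± 344). ENSCHIG00000006146, 621 nt on chromosome 17 (67999998 to 68000618), had 785, 564 and 448 CPM. ENSCHIG00000010582, 492 nt on chromosome 10 (76579797 to 76580288), had 701 and 590 CPM in replicates A and B but 160 in C. ENSCHIG00000006714, 1245 nt on chromosome 28 (31717843 to 31719087), went the other way, with 232 and 260 CPM in A and B and 497 in C. Replicate C was the lowest goat library for the first 3 of these members and the highest for the last.

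**Figure D4:**
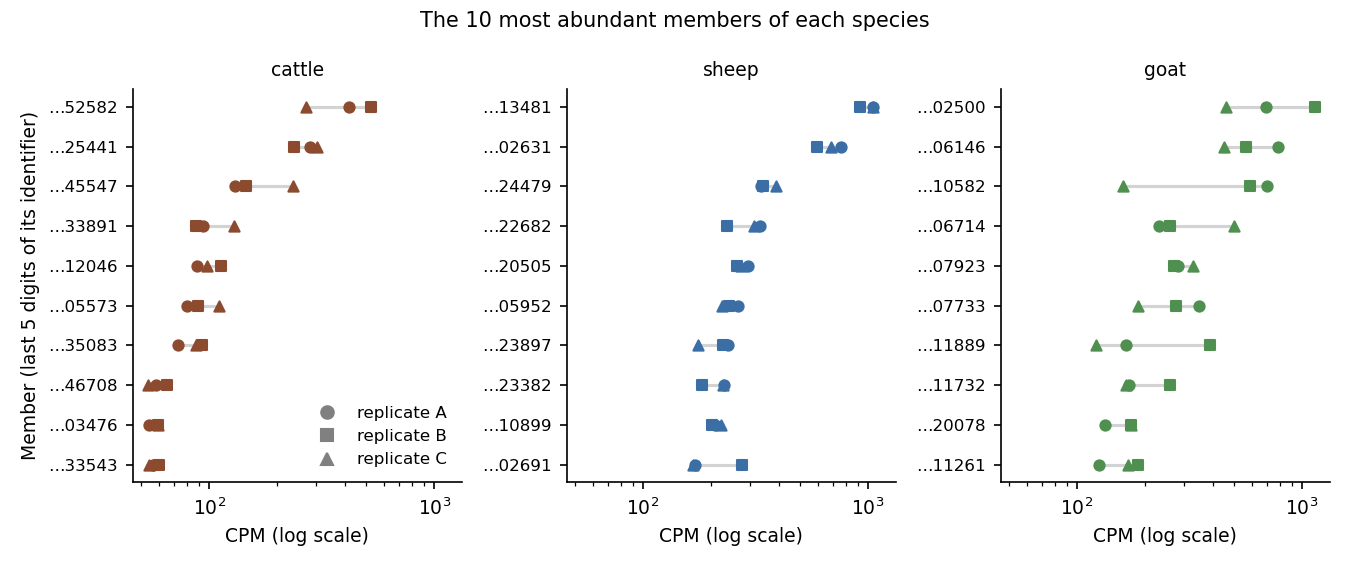
Level in CPM (x axis, log scale) of the 10 most abundant members of cattle, sheep and goats (y axis, last 5 digits of the identifier, highest mean on top). Circle, square and triangle are replicates A, B and C and a grey line spans them; in goats replicate C lies far to the left for 1 member, at 160 CPM against 590 and 701.

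Ranking by level per kb brought shorter genes forward. Leaving out the 10 most abundant members of each species, the highest in cattle was ENSBTAG00000025564, 321 nt on chromosome 10, with 40.0, 40.8 and 36.7 CPM, which is 122 CPM per kb. In sheep it was ENSOARG00020023320, 354 nt on chromosome X, with 140, 133 and 121 CPM (371 per kb), and in goats ENSCHIG00000011827, 351 nt on chromosome 2, with 111, 147 and 157 CPM (394 per kb).

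The spread between animals is given as a description. Among members with a mean of at least 10 CPM, the median coefficient of variation was 14.2% in cattle (81 members), 22.0% in sheep (155) and 33.6% in goats (180), beside 13.7, 19.7 and 33.8% for genes of 2 or more exons at the same level. The highest library exceeded the lowest at least by a factor of 2 for 14, 41 and 80 members. The widest range of all was that of ENSCHIG00000013849, 993 nt on goat chromosome 13, with 2.81, 8.46 and 189 CPM, where replicate C alone was high. ENSCHIG00000010391, 453 nt on goat chromosome 29, had 73.2 and 71.2 CPM in A and B and 4.66 in C. In sheep ENSOARG00020015198, 669 nt on chromosome 7 and overlapping the span of a gene on the opposite strand, had 49.8 and 53.2 CPM in A and C and 1.89 in B. The widest range in cattle was smaller, with 22.6, 4.47 and 25.4 CPM for ENSBTAG00000047029, 432 nt on chromosome 11.

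At the other end, ENSCHIG00000004994, 942 nt on goat chromosome 8 (25058551 to 25059492), had 44.4, 44.6 and 44.6 CPM in the 3 goats. ENSOARG00020015366, 702 nt on sheep chromosome 1, had 23.3, 24.03 and 24.2 CPM. ENSBTAG00000000940, 2622 nt on cattle chromosome 23, had 21.8, 20.7 and 21.1 CPM. These were the steadiest members of their species by the ratio of the highest to the lowest library.

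To compare the same locus between species without gene names, genes of many exons were first linked between genomes by runs of 3 consecutive internal exons of identical length. A single-exon gene was then matched when it was the only gene in the stretch between neighbouring links in both genomes, or the only gene of exactly its length there. Cattle and sheep shared 10184 such links, cattle and goats 9936, and sheep and goats 9948. Sheep and goats had 561 member pairs, while cattle had 257 pairs with sheep and 252 with goats. Of the pairs made by position alone, 57 of 68 had equal length in sheep and goats (83.8%), but 20 of 53 (37.7%) in cattle and sheep and 18 of 51 (35.3%) in cattle and goats.

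The matched members carried a larger part of the member counts in cattle than in sheep or goats. Members of cattle paired with sheep held 22.0% ± 2.04 of the cattle member counts, whereas their partners held 7.21% ± 0.852 of those of sheep. With goats the values were 21.8% ± 2.55 and 6.999% ± 0.849. Between sheep and goats the pairs held 43.6% ± 0.530 of the sheep and 45.2% ± 5.04 of the goat member counts.

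Detected members of sheep and goats often lay where cattle have a gene of more than 1 exon. Of the 399 detected sheep members inside a stretch linked to cattle, 50 (12.5%) had a single-exon partner, and 148 (37.1%) faced exactly 1 cattle gene of several exons with an exon at least as long. Those cattle genes had a median of 2 exons and a median of 944.5 nt more exon sequence than the sheep member. Of these genes, 125 had a mean of at least 1 CPM over the 3 cattle libraries. For goats against cattle, 52 of 388 (13.4%) had a single-exon partner and 152 (39.2%) faced 1 such gene. Between sheep and goats the balance was the reverse, with 207 of 399 sheep members (51.9%) paired with a single-exon gene and 39 facing 1 gene of several exons. Of the detected cattle members, 15 of 217 (6.91%) faced 1 such gene in sheep and 26 of 228 (11.4%) in goats. Undetected members were not counted in this way.

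Several of the most abundant sheep and goat members were of this kind. ENSOARG00020005952, 1071 nt on sheep chromosome 3, had 265, 240 and 224 CPM, and ENSCHIG00000007923, 1071 nt on goat chromosome 11, had 281, 270 and 329 CPM. Both faced the cattle gene ENSBTAG00000008985 of 2 exons and 3044 nt, which had 228, 254 and 229 CPM. The cattle gene is no member, so its counts are absent from the cattle share. Likewise ENSOARG00020024479 (334, 340 and 391 CPM) faced the 2-exon cattle gene ENSBTAG00000020512 with 258, 263 and 283 CPM. ENSCHIG00000006714 (232, 260 and 497 CPM) faced the 4-exon gene ENSBTAG00000008853 with 314, 308 and 334 CPM, and ENSOARG00020010899 (209, 201 and 221 CPM) faced the 2-exon gene ENSBTAG00000032656 with 420, 465 and 445 CPM. Other members of this kind faced a cattle gene at a low level. ENSOARG00020005049, with a mean of 27.2 CPM, faced ENSBTAG00000038662 at a mean of 0.0667 CPM. ENSOARG00020015872, with a mean of 24.3 CPM, faced ENSBTAG00000008625 at 0.560 CPM. All these pairs rest on position and exon length without a sequence comparison. How much of the difference in share between species they account for was not tested.

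At 147 loci a member was matched in all 3 species, and at 131 of them the exon had the same length in each. Over these loci the share of counts was 0.0680% ± 0.0107 in cattle, 0.0444% ± 0.00670 in sheep and 0.0508% ± 0.00507 in goats (exact permutation p = 0.0107, adjusted p = 0.0250). Much of the cattle excess lay at 1 locus, that of ENSBTAG00000045547, described below. This locus has the highest mean CPM of any species, a cattle value, so leaving it out had to lower the cattle share. Over the other 146 loci the means kept their order, but the test was not passed. The share there was 0.0510% ± 0.00519 in cattle, 0.0437% ± 0.00669 in sheep and 0.0504% ± 0.00477 in goats (exact permutation p = 0.286). With the 131 loci of equal length only, it was 0.0469% ± 0.00405, 0.0420% ± 0.00657 and 0.0490% ± 0.00450, and the test was not passed (exact permutation p = 0.318). Without cattle replicate C or without sheep replicate B the test over all 147 loci gave exact permutation p = 0.0571. All other members together had a share of 0.330% ± 0.0212 in cattle, 0.985% ± 0.0812 in sheep and 1.02% ± 0.0107 in goats (exact permutation p = 0.0250, adjusted p = 0.0292). At 22 of the 147 loci the member reached a CPM of at least 1 in all 9 libraries, and at 108 it reached it in all 3 libraries of no species.

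Levels of matched genes were tested pair by pair with edgeR's quasi-likelihood test on all matched genes, those of several exons included, with Benjamini-Hochberg adjustment at 0.05. Against sheep, 46 of 75 tested cattle members differed (61.3%, where 56.4% of all matched genes tested did), of which 19 were higher in cattle (background 27%) and 27 lower (background 29.4%). Against goats, 52 of 82 cattle members differed (63.4%, background 51.7%), 21 of them higher (background 25.7%) and 31 lower (background 26%). For sheep against goats, 54 of 289 differed (18.7%, background 19.5%), with 14 higher in sheep (background 8.22%) and 40 lower (background 11.3%). Among the members that differed, 1 in each comparison with cattle and 5 between sheep and goats had no count in 1 species. These had to differ, as described below. Pairs with few counts in 1 species could also pass the filter through the other species alone, and calls of that kind were not counted separately. The median log2 fold change of the members was 0.02, -0.34 and -0.12 for the 3 comparisons, where that of all matched genes was -0.01, -0.05 and 0.01. In absolute size the median was 1.39 and 1.67 for cattle over sheep and goats and 0.65 for sheep over goats, beside 0.88, 0.96 and 0.57 over all matched genes. The comparisons share libraries and are therefore not independent of each other. Without a filter on low counts the members' percentages lay below those of all matched genes. They were 40.5 against 51.3% for cattle and sheep, 40.6 against 47.5% for cattle and goats, and 13.1 against 17.5% for sheep and goats. Between sheep and goats the number fell to 23 (8.04%, background 12.6%) without sheep replicate A, 29 (10.1%, background 12.3%) without sheep replicate C and 28 (10%, background 11.8%) without goat replicate B. With an offset for exon length, 27 members were higher and 22 lower in cattle than in sheep, and the median log2 fold change of the members was 0.43. In the 61 tested pairs of equal length the offset is the same for both species. Their fold changes moved through the library scaling, which was recomputed on counts per kb.

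**Figure D5:**
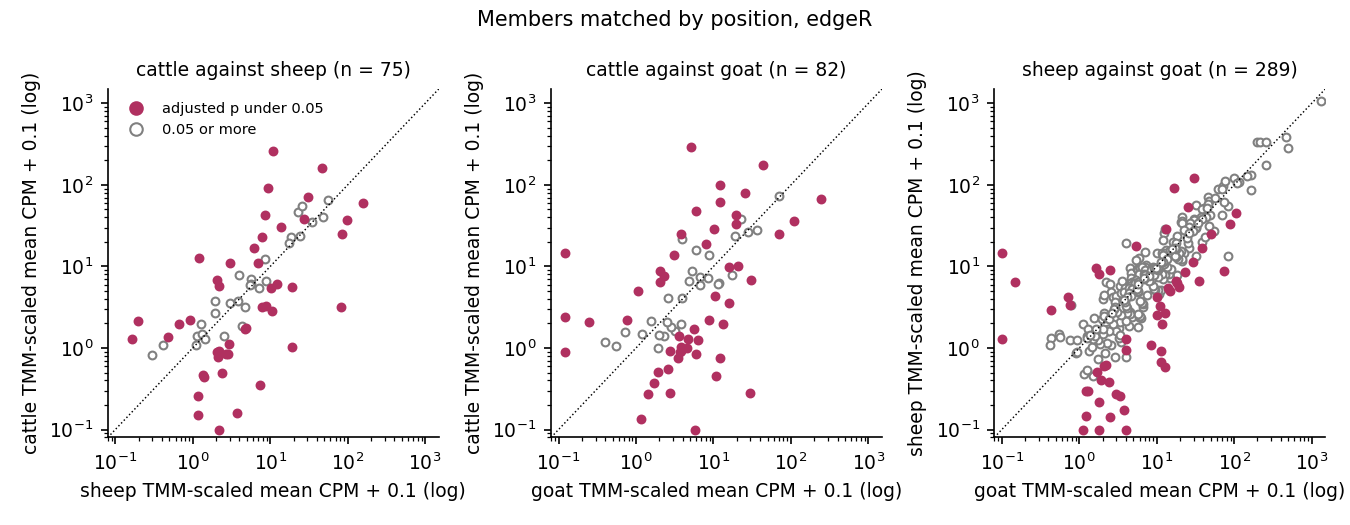
Mean CPM scaled by TMM (a between-library normalisation) of members matched by position, for the first species of each pair on the y axis and the second on the x axis, both log scales with 0.1 CPM added. Each point is 1 matched pair and the dotted line marks equal levels; red points have an edgeR adjusted p under 0.05 (46 of 75, 52 of 82 and 54 of 289), and the points of sheep against goat lie closest to the line.

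ENSBTAG00000045547, among the 4 most abundant members of cattle, showed a wide difference. Its 131, 146 and 235 CPM in cattle stood against 8.396, 6.84 and 7.16 CPM for the sheep partner ENSOARG00020019658 and 1.63, 2.31 and 7.15 CPM for the goat partner ENSCHIG00000007879, both 1542 nt rather than 1560. No cattle library came near those of the other species. The log2 fold change was 4.61 ± 0.31 (SE, adjusted p = 3.6e-05) over sheep and 5.87 ± 0.51 (adjusted p = 0.000143) over goats. As 1 of the members of unequal length, it is among those left out of the equal-length share above.

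A group of matched members on cattle chromosome 10 went in different directions. ENSBTAG00000033891 had 94.3, 87.7 and 128 CPM in cattle, its sheep partner ENSOARG00020020468 had 47.8, 24.2 and 27.0 CPM, and its goat partner ENSCHIG00000010952 had 34.5, 23.6 and 23.0 CPM, all with an exon of 1341 nt. It was higher in cattle by a log2 fold change of 1.77 ± 0.28 over sheep (adjusted p = 0.00124) and 2.04 ± 0.37 over goats (adjusted p = 0.00252). Its neighbour ENSBTAG00000025564 (42657516 to 42657836, 321 nt), which lies on the other strand, was lower in cattle. It had 40.0, 40.8 and 36.7 CPM in cattle, 93.8, 131 and 93.7 CPM in sheep (ENSOARG00020020454) and 126, 186 and 168 CPM in goats (ENSCHIG00000011261). The log2 fold change was -1.39 ± 0.28 against sheep (adjusted p = 0.00340) and -1.88 ± 0.29 against goats (adjusted p = 0.00126). Another member farther along, ENSBTAG00000045980 (42858869 to 42859396, 528 nt), overlapped in level with its goat partner, with 40.3, 43.0 and 44.9 CPM in cattle, 43.0, 31.7 and 40.8 CPM in sheep and 49.0, 39.8 and 47.1 CPM in goats. Its log2 fold changes of 0.26 ± 0.16 (adjusted p = 0.211) and 0.06 ± 0.25 (adjusted p = 0.862) did not pass the test, although an offset for exon length turned the former into 0.67 (adjusted p = 0.00962). As the exons of cattle and sheep are both 528 nt long, the offset acted on this pair through the library scaling.

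Another member lower in cattle was ENSBTAG00000016227, 660 nt on cattle chromosome 5 (66733093 to 66733752), chosen after its values were seen. It had 1.85, 2.43 and 1.82 CPM in cattle against 21.4, 46.7 and 108 CPM in sheep (ENSOARG00020010725) and 13.0, 8.59 and 8.06 CPM in goats (ENSCHIG00000013292). The sheep libraries spread widely among themselves but none approached the cattle level. The log2 fold change was -4.73 ± 0.55 (adjusted p = 0.000297) against sheep and -2.19 ± 0.39 (adjusted p = 0.00243) against goats.

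For the abundant members matched between sheep and goats that are named above or in this paragraph, no fold change passed the test. ENSOARG00020002631 had 756, 593 and 682 CPM and its goat partner ENSCHIG00000002500, the most abundant of the goat members, 694, 1139 and 461 CPM. The ranges overlap, and the log2 fold change of -0.28 ± 0.49 did not pass the test (adjusted p = 0.739). ENSOARG00020005952 and ENSCHIG00000007923, with the values given above, had a log2 fold change of -0.26 ± 0.34 (adjusted p = 0.648). ENSOARG00020023382, 864 nt on sheep chromosome X, had 230, 183 and 226 CPM, and its partner ENSCHIG00000020078, on a goat sequence without a chromosome number, had 133, 174 and 173 CPM. These ranges do not overlap, yet the log2 fold change of 0.40 ± 0.33 did not pass the test (adjusted p = 0.443). Ranges were also apart for ENSOARG00020010899, with 209, 201 and 221 CPM, and its goat partner ENSCHIG00000011103, with 147, 115 and 89.8 CPM. The same held for ENSCHIG00000006714, with 232, 260 and 497 CPM, and its sheep partner ENSOARG00020021844, with 171, 154 and 211 CPM.

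Among members named for their steadiness, ENSCHIG00000007661 had 18.3, 19.1 and 18.3 CPM in goats, whereas its sheep partner ENSOARG00020014248, also 1068 nt on chromosome 2, had 136, 42.9 and 51.6 CPM. The member was higher in sheep by a log2 fold change of 1.99 ± 0.43 (adjusted p = 0.00831). In 5 tested pairs of sheep and goats, 1 species had no count in any library. Such a pair passed the filter on low counts only through the species in which it was high, so it had to differ, and its counts are given as a description. The most abundant of these, chosen after its values were seen, was ENSOARG00020009877, 771 nt in sheep, with 206, 396 and 337 counts, where ENSCHIG00000010420 of equal length had 0, 0 and 0 counts. In the other direction ENSOARG00020022948 had 0, 0 and 0 counts and ENSCHIG00000010722 had 52, 60 and 60, both 357 nt. For cattle with either other species, 1 pair was at 0 in every library of cattle.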

How the data were processed

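The authors trimmed reads of Oligo(dT)-selected RNA (150 bp pairs) with Trimmomatic 0.39, aligned them with STAR 2.7.6 to an Ensembl genome of each species and deposited raw featureCounts counts per gene, with exon positions and length, 1 file per library. Versions are those of the submitters' processing notes, which name ARS-UCD1.2; the study's methods name an Ensembl release for the RNA and, for its other sequencing, Oar_rambouillet_v1.0 and ARS1. The strand setting and the treatment of read pairs are not given in the sources used here. Positions are as deposited.

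Overlapping exon intervals were pooled per gene. CPM used all gene counts of a library as deposited. Libraries are of separate animals and none repeats another. Members, lists and tests were chosen with earlier results of these data known. Named members were, per species, the 10 highest by mean CPM, the next 3 by CPM per kb, and, above 10 CPM, the 3 with the widest and the 3 with the narrowest ratio between libraries. Shares and detection were tested with exact permutations of libraries over species (two-sided, Python 3.11.15, scipy 1.17.1). Genes matched by position, a step added after seeing the data, were tested with edgeR 4.0.16 (TMM, CPM above 1 in at least 2 libraries), with DESeq2 1.42.0 as an alternative. Scripts were tested on simulated data. Matching by symbol, gene lists and cell type markers was not run, since 0 identifiers had a symbol. Intervals and limits cover counting error only.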

Additional observations from a re-analysis of the deposited data

Results flagged for a closer look

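Single-exon nuclear genes under 300 nt lie outside the members. They were looked at because their counts could be set beside the members' share. Their share of all counts was 0.0439% ± 0.00329 for cattle, 0.807% ± 0.266 for sheep and 0.197% ± 0.0938 for goats (SD, n = 3). In sheep most of this came from ENSOARG00020018871, 264 nt on a sequence without a chromosome number, with 5956, 10135 and 3909 CPM in replicates A, B and C. This is above every member of 300 nt or more. In goats the highest short gene was ENSCHIG00000002061, 159 nt on chromosome 29 (44033400 to 44033558), with 72.3, 217 and 763 CPM, where replicate C was far above the others. The highest in cattle was ENSBTAG00000048608, 153 nt on chromosome 27 (6222648 to 6222800), with 33.0, 36.6 and 27.8 CPM. Groups of 3 libraries are too small for the test of a single outlying library, so none was made.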

How the results depend on the processing

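The alternatives were those listed for each result; the members matched by position and their alternatives were added after seeing the data. For the comparisons across libraries and the numbers of members, 84 of 105 values under another setting and 94 of 99 with 1 library left out kept their direction and their side of the threshold, or stayed close in size. The share of counts stayed lower in cattle under every alternative run. The difference cattle minus sheep, -0.631 percentage points with all members, was -0.396 with a length minimum of 500 nt, -1.39 without a length minimum, -1.37 with counts divided by exon length and -0.545 for members outside the span of other genes. Cattle minus goats, -0.673, was -0.403, -0.826 and -1.48 under the first 3 of these, -0.651 over nuclear counts only, -0.637 without the most abundant member and -0.559 on numbered chromosomes and X. Sheep minus goats, -0.0421, was 0.568 without a length minimum, -0.116 per exon length, -0.112 outside other genes and 0.0689 on numbered chromosomes and X, so its direction was not settled. The replicate letters do not pair the animals: deviations of same-lettered libraries correlated between -0.166 and 0.272, and 4 of 6 libraries correlated best with their own letter between sheep and goats. With the letter as a replicate block, the between-species part of the variation in share stayed at 0.981 but the exact p became 0.0833 (36 divisions, smallest 0.0278); other calls across libraries kept their side, and 43, 48 and 63 matched members differed between cattle and sheep, cattle and goats, and sheep and goats, against 46, 52 and 54, while the share over all matched genes moved to 51.2, 46.2 and 22.9% from 56.4, 51.7 and 19.5%. At a CPM of at least 5 the members detected in all 3 libraries fell to 115 in cattle, 190 in sheep and 207 in goats. For the members matched in all 3 species, the between-species part was 0.707, 0.323 with equal lengths only, 0.342 without the most abundant matched locus and 0.673 to 0.795 with 1 library left out. Without a filter on low counts 70 of 173 members (40.5%) differed between cattle and sheep, below the 51.3% of all matched genes, whereas with the filter the members' 61.3% was above the 56.4% of all. Without it, 71 of 175 (40.6%, background 47.5%) differed between cattle and goats, and 59 of 452 (13.1%, background 17.5%) between sheep and goats. Between sheep and goats the number ranged from 23 to 63 with 1 library left out. Among fold changes of named members, 238 of 240 values kept direction and side of the threshold, and 2 passed it newly. Matching by symbol was not run. Depth limits the low members, where 3 counts are up to 0.182 CPM.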
